A study of Mus musculus with 56 samples.

Results

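Hepatic expression of the carbohydrate response element binding protein (ChREBP, encoded by Mlxipl) and of 8 genes that work with it in sugar metabolism was followed across 6 groups of male mice. The 9 genes were taken by name: Mlxipl, the α-arrestin genes Txnip and Arrdc4, the fructolytic genes Khk and Tkfc, the glycolytic genes Pklr, Pfkfb1 and Pfkl, and Gpd1. They are 9 of the 52230 genes in the tables, and all 9 passed the filter on low counts in each of the 13 comparisons. The mice carried proline on both alleles (PP), proline and leucine (PL) or leucine on both alleles (LL) at residue 446 of glucokinase regulatory protein (GKRP, encoded by Gckr), in a knock-in line made by CRISPR on C57BL/6N. The 6 groups received a high-fat diet with sugared water for 20 weeks, with 45% fat, 20% protein and 35% carbohydrate in the food and 10% glucose and 5% fructose in the water. In 3 of the groups (PP_GKA, PL_GKA and LL_GKA) the diet also contained a glucokinase activator (GKA) at 3 mg/kg. The groups held 9 PP, 8 PL, 10 LL, 10 PP_GKA, 8 PL_GKA and 10 LL_GKA livers. A further PP mouse, mouse 7, was left out, so that 55 of 56 mice were compared. The knock-in is a single line, the food was withdrawn shortly before cull, and the labels give no litter, cage, batch or time of cull.

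GKRP is a regulator of hepatic glucose metabolism that responds to fructose phosphates. ChREBP is a basic helix-loop-helix leucine zipper factor that is activated by sugar phosphates and binds, with its partner Mlx, to carbohydrate response elements made of a pair of E-box-like hexamers 5 bases apart. Txnip and Pklr are the textbook targets of this element in the liver, and Txnip and Arrdc4 are used as transcriptional read-outs of hexose phosphate because sugar raises both. Ketohexokinase (Khk) and triokinase (Tkfc) carry the opening and the closing step of fructolysis.

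The 2 elements that fit this description in the promoters are shown because they mark the targets on which the comparison turns. Promoter windows of 300 bases (250 before and 50 after the annotated start) were read from RefSeq on GRCm38.p6 for 8 of the 9 genes, with 13 windows in all. A hexamer CACGNG on either strand was present in 27.5% of the 32851 promoters of that table. A pair of them with 5 bases between was present in 27 promoters (0.0822%), and among the 13 windows only in that of Txnip and in the downstream start of Pklr. The sequences below are written 5′ to 3′ on the gene's strand, with the hexamers in capitals. The Txnip element lies at chr3:96557852-96557908 on the plus strand, and its first hexamer begins 85 bases before the start.
Txnip: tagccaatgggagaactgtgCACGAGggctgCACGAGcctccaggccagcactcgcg
The Pklr element lies at chr3:89136433-89136489 on the plus strand, and its first hexamer begins 170 bases before the downstream start.
Pklr: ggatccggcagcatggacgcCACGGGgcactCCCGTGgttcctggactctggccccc
The windows of Arrdc4, Khk and Tkfc each held 1 hexamer without a partner at that distance.
Those of Arrdc4 (chr7:68749406-68749451, minus strand, 193 bases before the start), Khk (chr5:30921468-30921513, plus strand, 71 bases before) and Tkfc (chr19:10604318-10604363, minus strand, 85 bases before) read as follows.
Arrdc4: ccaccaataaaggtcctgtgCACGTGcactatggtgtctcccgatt
Khk: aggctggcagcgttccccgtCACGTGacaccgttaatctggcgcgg
Tkfc: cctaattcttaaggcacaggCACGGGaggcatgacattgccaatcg
The Txnip window held 4 hexamers in all, and the main Mlxipl start and the upstream Pklr start held none. The upstream Mlxipl start held 2, and the Pfkl window and 1 of the Pfkfb1 windows held 1 each. None of these had a partner at that distance. These matches describe letters in a window and were not measured as binding.

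The libraries held between 5189852 and 8093368 estimated reads, with a median of 6555851. Gckr itself was slightly lower in LL than in PP liver over both treatments (by −0.21 ± 0.06 on the log2 scale, where ± gives the SE of the edgeR fit, with adjusted p = 0.0475). That change was smaller than the fold threshold given below, so Gckr was not called. Hepatocyte markers dominated every group: the summed level of 6 of them ran from 74825 to 119652 CPM (reads per 1000000, scaled by TMM) in LL and from 80339 to 117901 CPM in PP. Among the PL and GKA groups the lowest sum was 69097 CPM (PL_GKA) and the highest 124637 CPM (LL_GKA). Of the 5 adipose markers Adipoq and Lep were at 0 in all 55 mice, Plin1 reached at most 0.234 CPM and Cfd at most 4.32 CPM. The fifth, Car3, which hepatocytes also express, made up nearly all of that list's sum, which was 1856 to 4309 CPM in PP and 3142 to 4525 in LL, and 2312 to 4255 in PP_GKA and 1674 to 3460 in LL_GKA. Over both treatments Cfd stood at 1.12 ± 0.45 in LL against PP (unadjusted p = 0.0184, adjusted p = 0.195) and Car3 at −0.03 ± 0.11 (adjusted p = 0.939), and their part in the results below was not tested. The pancreatic and muscle lists summed to under 1 CPM. Lymphocyte markers summed to 0.298 to 2.31 CPM in PP and 1.17 to 2.98 in LL, and with GKA to 0.188 to 3.27 and 0.462 to 1.8. Pericentral markers summed to 4756 to 7021 CPM in PP and 4604 to 10444 in LL, and with GKA to 3854 to 7453 and 4802 to 8783. For bile duct markers these sums were 11.5 to 96.8, 6.97 to 42.5, 7.54 to 44.3 and 9.46 to 73.4 CPM. The part of these lists was not tested. Haemoglobin and other red cell markers summed to 288.1 to 717.9 CPM in PP and 394.8 to 1659 CPM in LL, and with GKA to 372.8 to 670.1 in PP and 284.7 to 2967 in LL. Of these 6 markers 5 were tested over both treatments, where 4 were higher at an unadjusted p below 0.05 and 0 were called. Of all genes 7.51% were higher at that p and 1.49% were called. The part of these markers was likewise not tested. In these bulk samples, fewer cells of a type and less RNA per cell cannot be told apart.

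The levels of the 9 genes were ordered per transcript length, as TPM (transcripts per 1000000). Khk was the most abundant with a median of 514 TPM over 55 mice, followed by Pklr at 258, Tkfc at 153 and Gpd1 at 94.9 TPM. Mlxipl stood at 56.3 TPM, Txnip at 16.6, Pfkfb1 at 11.6, Pfkl at 6.23 and Arrdc4 at 0.947 TPM. Each gene was above the next in 47 or more of 55 mice, except that Txnip exceeded Pfkfb1 in only 34, so these neighbours were not ordered beyond their spread. Short transcripts weigh heavily in TPM. Pklr-203, with 217 coding bases, held 48.0% of the Pklr TPM from 5.1% of its reads, and the retained intron Khk-202 25.1% of the Khk TPM from 8.7%. The place of Pklr above Tkfc was not tested without Pklr-203. In PL mouse 25 a single transcript took 52.2% of all TPM. Pfkl, the liver subunit of phosphofructokinase, lay at 2.27 to 20.4 TPM against 199 to 1512 TPM for Khk. Arrdc4 rested on 12 to 49 reads per mouse, which limits its precision, whereas Khk rested on 2422 to 8052.

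Txnip, the gene of an α-arrestin that binds thioredoxin and promotes the internalization of glucose transporters, was the member that changed with genotype. Its level was 17.7 to 71.8 CPM (median 24.9) in 9 PP livers, 25.6 to 78.6 CPM (median 40.9) in 8 PL livers and 38.6 to 158 CPM (median 67.7) in 10 LL livers. With GKA it was 20.5 to 70.8 CPM (median 27.0) in PP, 23.9 to 77.6 CPM (median 44.9) in PL and 39.5 to 172 CPM (median 68.0) in LL. All 20 LL mice lay above the PP mean of their own treatment, 8 of 20 lay above the highest PP mouse, and only 3 of 19 PP mice lay above the lowest LL mouse, so the groups overlapped in a few animals. The medians of the heterozygotes lay between those of the homozygotes in both treatment arms, with ranges that overlapped both: 8 of 10 PP_GKA mice lay above the lowest PL_GKA mouse, and 5 of 8 PL mice above the lowest LL mouse.

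**Figure D1:**
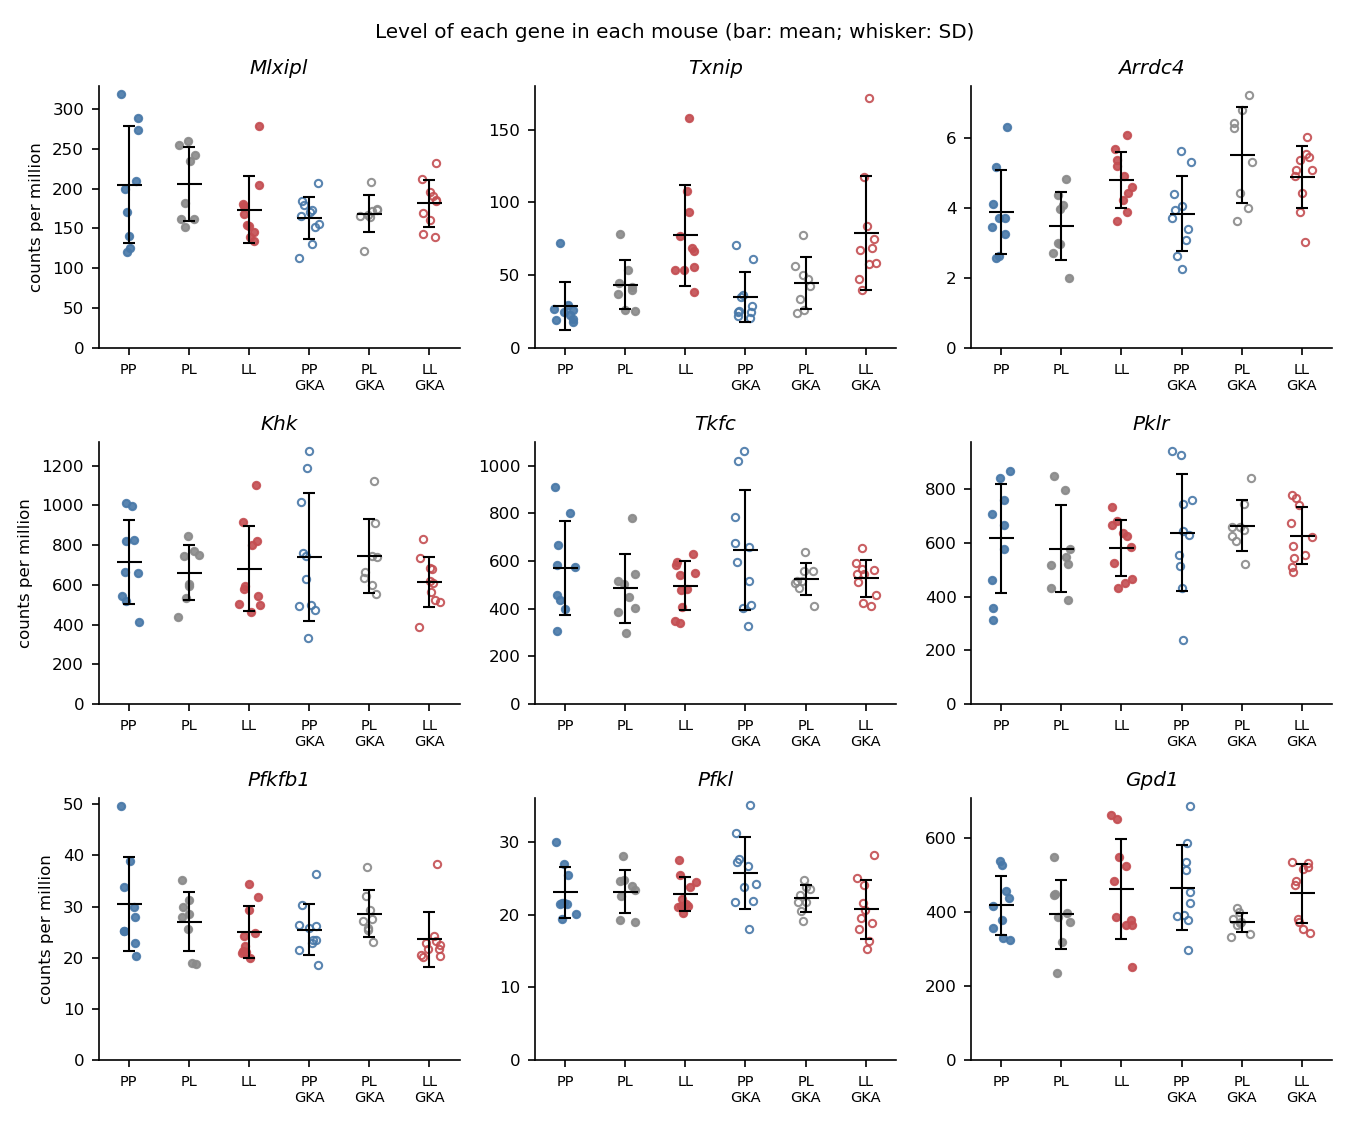
CPM of the 9 genes (y axis, linear from 0) in each mouse of the 6 groups (x axis; filled without GKA, open with GKA), with the mean (bar) and SD (whisker). Txnip averaged 28.8 in PP and 77.3 in LL, and 34.9 in PP_GKA and 78.7 in LL_GKA, while the points of Khk, Tkfc, Pklr and Gpd1 overlap throughout.

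Over both treatments, with GKA as a term in the fit, Txnip was 2.44-fold higher in LL (log2 fold change 1.29 ± 0.20 SE, 39 mice; edgeR quasi-likelihood test, Benjamini-Hochberg adjusted p = 0.0002). A gene was called when its adjusted p was below 0.05 and its fold at least 1.3 or at most 0.7. By this rule Txnip was the only member called, 1 of 9 against 1.49% of all 11193 genes tested in that comparison. Without GKA the difference was 1.42 ± 0.27 (adjusted p = 0.048) and Txnip was again the only member called, where 0.0854% of genes were called; 1 of 9 members, against 11.8% of genes, had an unadjusted p below 0.05. With GKA it was 1.17 ± 0.27 (unadjusted p = 0.000224, adjusted p = 0.0586) and no member was called by edgeR, where 0.239% of genes were called, although DESeq2 called Txnip there. At an unadjusted p below 0.05 there were 2 members higher (Txnip and Arrdc4) and 1 lower (Pfkl), against 10.4% of genes. Both single-arm results lie close to the threshold. Without GKA the call was lost when any of 15 of the 19 mice was left out (adjusted p up to 0.11) and kept without PP mouse 6 or LL mouse 38, 42 or 44. With GKA it was gained without PP_GKA mouse 13 (adjusted p = 0.0284) or mouse 14 (adjusted p = 0.0201). The effect of LL did not differ detectably between the arms (interaction −0.25 ± 0.39, adjusted p = 0.99).

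The fitted means of the heterozygotes lay between those of the homozygotes. Txnip in PL exceeded PP by 0.59 ± 0.27 without GKA (unadjusted p = 0.0419, adjusted p = 0.468) and by 0.35 ± 0.26 with GKA (unadjusted p = 0.197), where the direction turned (−0.17) with the clock component described below as a term in the fit. In LL it exceeded PL by 0.82 ± 0.25 without GKA (unadjusted p = 0.00412, adjusted p = 0.67) and by 0.81 ± 0.27 with GKA (unadjusted p = 0.00682, adjusted p = 0.416). None of these 4 steps passed the adjusted threshold. No member was called between PL and its neighbours, where 0.151% of genes were called for PL against PP and 0.00942% for LL against PL without GKA, and 0% of genes in either comparison with GKA. At an unadjusted p below 0.05 there was 1 member for PL against PP without GKA (10.1% of genes) and 2 with GKA (8.19%), and there were 2 for LL against PL without GKA (4.58%) and 3 with GKA (8.6%), while DESeq2 called 0 members in these 4 comparisons.

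Clock genes also differed with genotype. Of 16 clock genes tested over both treatments 1 was called higher in LL, the repressor gene Bhlhe41 (1.26 ± 0.34), and 4 lower, the core activators Bmal1 (−1.25 ± 0.30) and Npas2 (−2.25 ± 0.49), Cry1 (−0.92 ± 0.22) and Nfil3 (−0.74 ± 0.19). Of all genes in that comparison 1.49% were called. In PL against PP without GKA, where 0.151% of genes were called, Per3 (1.38 ± 0.27) and Cry2 (0.54 ± 0.10) were called higher. A clock component, the first principal component of 16 clock genes (61.1% of their variance), averaged −0.63 ± 0.56 (SD, n = 9) in PP and 0.52 ± 0.79 (SD, n = 10) in LL, and −0.89 ± 1.3 in PP_GKA and 0.03 ± 0.76 in LL_GKA. The heterozygotes averaged 0.58 ± 0.80 (SD, n = 8) in PL and 0.55 ± 0.54 in PL_GKA. Within groups, Txnip and the component correlated across 55 mice with r = 0.391 and rho = 0.371 (permutation test, adjusted p = 0.0436 and 0.0481 over 45 relations), and r was 0.312 without the 2 mice farthest from the median. The component was related to other members as well: by rank to Khk (r = 0.25, rho = 0.381, adjusted p = 0.377 and 0.0481) and to Gpd1 (r = −0.394, rho = −0.379, adjusted p = 0.0547 and 0.0481), with r of 0.292 and −0.504 without the 2 farthest mice. With the component as a term in the fit the difference over both treatments was 0.96 ± 0.20 (adjusted p = 0.0139), so Txnip remained called, whereas the difference without GKA was 0.99 ± 0.33 (adjusted p = 0.171) and no longer passed. The genes whose within-group variation was most like that of Txnip were Ivns1abp (r = 0.685), Acad10 (r = 0.65) and the clock gene Nr1d2 (r = 0.643), over 55 mice and 11516 genes.

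**Figure D2:**
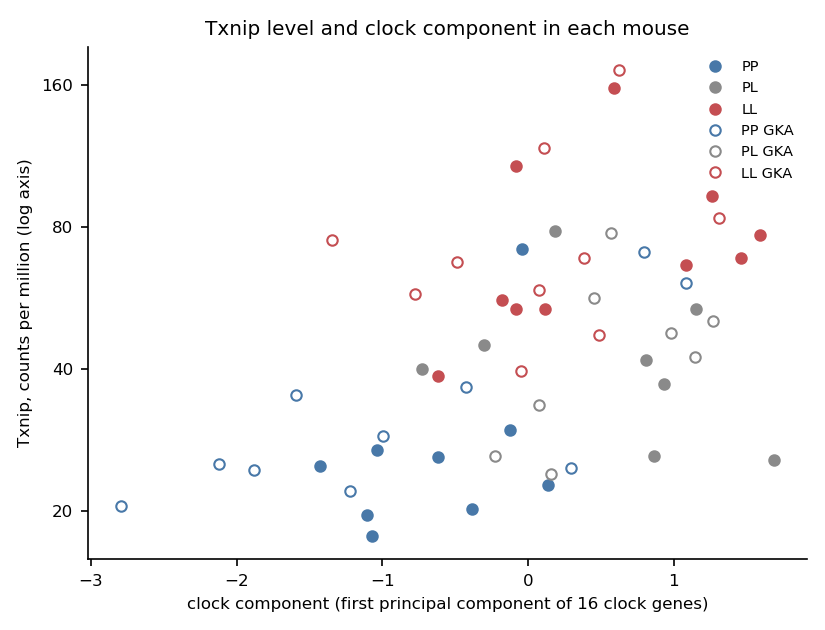
Txnip in CPM (y axis, log scale) against the clock component (x axis, no unit) for each of 55 mice, coloured by genotype, filled without and open with GKA. LL mice lie mostly above PP mice of the same component value, and PP mice extend furthest to the left, with a group mean of −0.63 without GKA and −0.89 with it.

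Txnip also varied more between mice of the same group than most genes. Its within-group SD on the log2 scale was 0.586, larger than that of 86.6% of the 11516 genes, whose median was 0.315. Across all mice it spanned 9.72-fold, against 2.3-fold for Pfkl, whose SD of 0.213 was the smallest of the 9 genes. The highest PP value came from mouse 6 at 71.8 CPM, where the next PP mouse was at 29.6 CPM. Without mouse 6 the difference of LL from PP without GKA grew to 1.70 (adjusted p = 0.0023).

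Arrdc4, the paralogue of Txnip that likewise restrains glucose uptake, was higher in LL by a smaller amount that did not pass the test. Its level was 2.58 to 6.33 CPM (median 3.70) in PP, 2.00 to 4.83 (median 3.48) in PL and 3.62 to 6.10 (median 4.75) in LL. With GKA it was 2.25 to 5.64 CPM (median 3.84) in PP, 3.64 to 7.23 (median 5.80) in PL and 3.04 to 6.02 (median 5.08) in LL. Here 18 of 20 LL mice lay above the PP mean, but 15 of 19 PP mice also lay above the lowest LL mouse. Over both treatments the log2 fold change was 0.32 ± 0.11 (unadjusted p = 0.00558, adjusted p = 0.101), and no relation of Txnip to Arrdc4 was detected within groups (r = 0.065, rho = 0.069, permutation test adjusted p = 0.826 and 0.746). In PL livers Arrdc4 was higher with GKA by 0.65 ± 0.19 (higher than the PL mean in 8 of 8 mice, unadjusted p = 0.00315, adjusted p = 0.999), and its interaction of GKA with PL was 0.67 ± 0.27 (unadjusted p = 0.0184, adjusted p = 1).

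**Figure D3:**
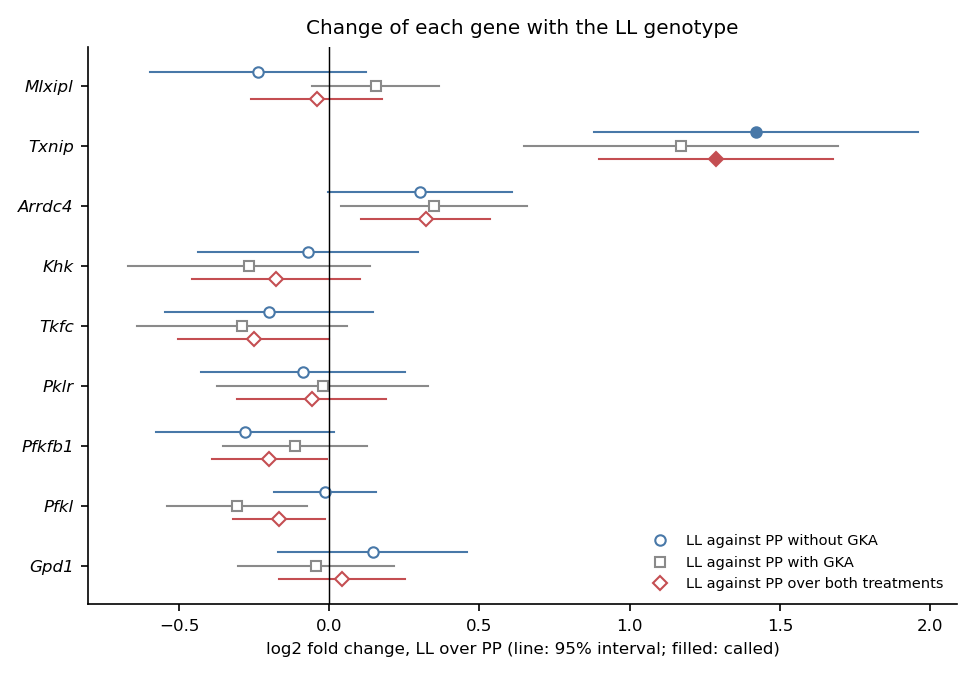
Log2 fold change of LL over PP (x axis) for each of the 9 genes (y axis) without GKA, with GKA and over both treatments; lines are 95% intervals (1.96 SE) and filled symbols passed the test with the fold threshold. Txnip stands at 1.42, 1.17 and 1.29, Arrdc4 near 0.32, and the intervals of Mlxipl, Khk, Pklr and Gpd1 over both treatments include 0. The intervals are slightly narrower than ones matched to the F test.

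Mlxipl, the gene of ChREBP itself, did not pass the test in any comparison. Its level was 121 to 318 CPM (median 199) in PP, 151 to 259 (median 208) in PL and 134 to 278 (median 161) in LL, and with GKA 113 to 207 (median 168) in PP, 122 to 208 (median 169) in PL and 140 to 232 (median 185) in LL. The difference of LL from PP over both treatments was −0.04 with a 95% interval of −0.26 to 0.18 on the log2 scale. Mlxipl was lower with GKA in PL by −0.29 ± 0.13 (unadjusted p = 0.0392, adjusted p = 0.999), and over 3 genotypes by −0.18 ± 0.09 (unadjusted p = 0.0515, adjusted p = 0.928).

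Salmon's transcript estimates place 52.1% ± 8.37 (SD) of the Mlxipl reads on Mlxipl-201, the transcript with the longest coding region. Per transcript length, as TPM, its share of the gene averaged 27.6% in PP and 35.0% in LL, and 30.8% in PP_GKA and 30.7% in LL_GKA. A low-level transcript, Mlxipl-210, starts 17011 bases upstream, at 135118744 on chromosome 5 (GRCm39), in the place of the alternative exon that gives rise to the short ChREBP-β isoform. It was singled out after its structure was seen. It carried 0 to 43.4 reads per mouse. Its mean was 1.47 ± 1.59 CPM (SD, n = 9) in PP and 0.647 ± 0.776 (SD, n = 10) in LL, and with GKA 0.794 ± 0.983 in PP and 1.83 ± 1.17 in LL. A read was assigned to it in 5 of 10 LL mice and in 10 of 10 LL_GKA mice (permutation test of the difference in CPM, unadjusted p = 0.0154, adjusted p = 0.108 over 7 comparisons). The transcript is annotated with 0 coding bases, so its level is no measure of the β protein.

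Khk, the hexokinase of fructose, lay between 410 and 1013 CPM in PP and between 464 and 1104 CPM in LL. With GKA it lay between 334 and 1272 CPM in PP and between 385 and 832 CPM in LL. The ranges overlapped almost entirely, and the difference over both treatments was −0.18 with a 95% interval of −0.46 to 0.10. Khk lies 353308 bases from Gckr on chromosome 5, the edited gene.

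Tkfc, which phosphorylates glyceraldehyde from fructose, stood at −0.25 ± 0.13 in LL against PP over both treatments, which did not pass the test (unadjusted p = 0.0557, adjusted p = 0.339), and 7 of 10 LL and 9 of 10 LL_GKA mice lay below the PP mean of their own treatment. Its level was 307 to 908 CPM (median 574) in PP and 341 to 629 (median 513) in LL, and 326 to 1061 (median 627) in PP_GKA and 411 to 654 (median 547) in LL_GKA. The highest PP mice lay far above any LL mouse, so that the coefficient of variation was 34.4% in PP and 38.8% in PP_GKA against 20.6% in LL and 14.5% in LL_GKA. This difference in spread was not tested.

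Of the 9 listed genes of fructose handling 8 were measured and tested, and none was called in LL against PP over both treatments by edgeR; 2 were higher and 2 lower at an unadjusted p below 0.05. Those higher were the fructose transporter gene Slc2a5 (0.58 ± 0.20, unadjusted p = 0.0054, adjusted p = 0.0988) and Slc2a8 (0.29 ± 0.13, adjusted p = 0.267). Among those lower was Glyctk, the glycerate kinase gene (−0.11 ± 0.05, adjusted p = 0.312). Over all genes 7.51% were higher and 8.07% lower at that unadjusted p. The median of the list was −0.05 against 0.00 over all genes.

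Pklr, which encodes liver pyruvate kinase and is a textbook ChREBP target, did not pass the test in any comparison. It was 314 to 868 CPM (median 667) in PP and 433 to 733 (median 605) in LL, and 240 to 942 (median 637) in PP_GKA and 491 to 778 (median 607) in LL_GKA. The difference of LL from PP over both treatments was −0.06 with a 95% interval of −0.31 to 0.19, so a rise of the size of that of Txnip lay outside the interval. Both genes carry a hexamer pair, as shown above, but neither binding nor the activity of ChREBP was measured. The transcript from the downstream Pklr start (Pklr-202) took 23.8% ± 8.71 (SD) of the gene's reads and that from the upstream start (Pklr-201) 70.9% ± 7.76, as Salmon assigned reads between transcripts that differ in their first exon. As TPM these shares averaged 10.4% to 14.6% for Pklr-202 and 28.7% to 40.7% for Pklr-201 over the PP and LL groups. Most of the rest of the TPM lay on the short transcript Pklr-203, which averaged 48.0% of the gene's TPM and 5.1% of its reads over all mice. The liver form of the enzyme is usually taken to start downstream, and whether the split reflects the assignment of reads or the annotation was not tested. Of 15 transcript shares compared between LL and PP none passed the test in either arm by the permutation test. At an unadjusted p below 0.05 it was 0 without GKA, and 1 with GKA, that of Pfkfb1-202 at 91.4% ± 3.93 (SD, n = 10) in LL_GKA and 95.5% ± 3.09 in PP_GKA (adjusted p = 0.274).

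Gpd1, whose enzyme makes the glycerol backbone of triglyceride from dihydroxyacetone phosphate, was at 324 to 537 CPM in PP and 251 to 662 in LL. Over both treatments the difference was 0.04 with a 95% interval of −0.17 to 0.25. The PL_GKA mice formed a narrow band at 333 to 411 CPM, within the range of PP_GKA (298.5 to 686 CPM) and overlapping that of LL_GKA (342 to 536 CPM), with the lowest mean of these 3 groups. With GKA, PL was lower than PP by −0.33 ± 0.13 (8 of 8 mice below the PP mean, unadjusted p = 0.0179, adjusted p = 0.455) and LL was higher than PL by 0.28 ± 0.10 (unadjusted p = 0.0135, adjusted p = 0.451).

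The genes of the phosphofructokinase step did not pass the test. Pfkl was 18.1 to 35.1 CPM (median 25.4) in PP_GKA and 15.3 to 28.2 (median 20.1) in LL_GKA, a difference of −0.31 ± 0.12 (9 of 10 LL mice below the PP mean, unadjusted p = 0.0168, adjusted p = 0.339). Over both treatments it was −0.17 ± 0.08 (unadjusted p = 0.0373, adjusted p = 0.281). Pfkfb1, the liver enzyme that both makes and removes fructose 2,6-bisphosphate, was −0.20 ± 0.10 over both treatments (unadjusted p = 0.0478, adjusted p = 0.315), and LL was lower than PL with GKA by −0.28 ± 0.12 (unadjusted p = 0.0296, adjusted p = 0.544). In the comparison over both treatments, 2 of the 9 members were thus higher and 2 lower at an unadjusted p below 0.05, where 15.6% of all genes were.

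Of the 38 listed genes of glucose entry and glycolysis 34 were tested over both treatments, and 2 were called lower and none higher. Among those called was Slc2a1, a glucose transporter gene of many cell types (−0.62 ± 0.12, adjusted p = 0.00155). At an unadjusted p below 0.05, 4 were higher and 7 lower, and the median was −0.02. Over all genes in this comparison 1.49% were called, and 7.51% were higher and 8.07% lower at that unadjusted p. Slc2a2, the liver glucose transporter gene, was higher by 0.30 ± 0.05 (adjusted p = 0.00105), under the fold threshold. Of 11 listed ChREBP partners and regulators 1 was called: Bhlhe40, a repressor that is also part of the clock's feedback, was higher by 0.65 ± 0.11 (adjusted p = 0.00041), and by 0.76 ± 0.15 in the GKA arm alone (adjusted p = 0.0295). Among the 5 tested α-arrestin genes Txnip alone was called; Arrdc2 was lower by −0.43 ± 0.15 (adjusted p = 0.0937) and Arrdc3 stood at 0.18 ± 0.20.

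Other genes listed as ChREBP targets divided by direction. Of 21 tested over both treatments 2 were called higher and 4 lower, with 5 higher and 8 lower at an unadjusted p below 0.05 and a median of −0.18. Over all genes 1.49% were called, and 7.51% were higher and 8.07% lower at that unadjusted p. The genes called higher were G6pc1, the catalytic subunit of glucose 6-phosphatase (0.99 ± 0.20, adjusted p = 0.00267), and Klf10, a glucose-induced repressor (0.99 ± 0.15, adjusted p = 0.0002). The genes called lower were Ppp1r3b, a glycogen-targeting subunit of protein phosphatase 1 (−0.78 ± 0.14, adjusted p = 0.0011), the lipogenic genes Acly (−0.99 ± 0.24, adjusted p = 0.0127) and Elovl6 (−0.85 ± 0.23, adjusted p = 0.0291), and Pnpla3, which encodes a lipid droplet protein (−1.35 ± 0.36, adjusted p = 0.0269). G6pc1 was also higher in LL than in PL without GKA, by 1.42 ± 0.20 (adjusted p = 0.00821). Fasn, the fatty acid synthase gene, was −0.76 ± 0.25 (adjusted p = 0.0892).

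**Figure D4:**
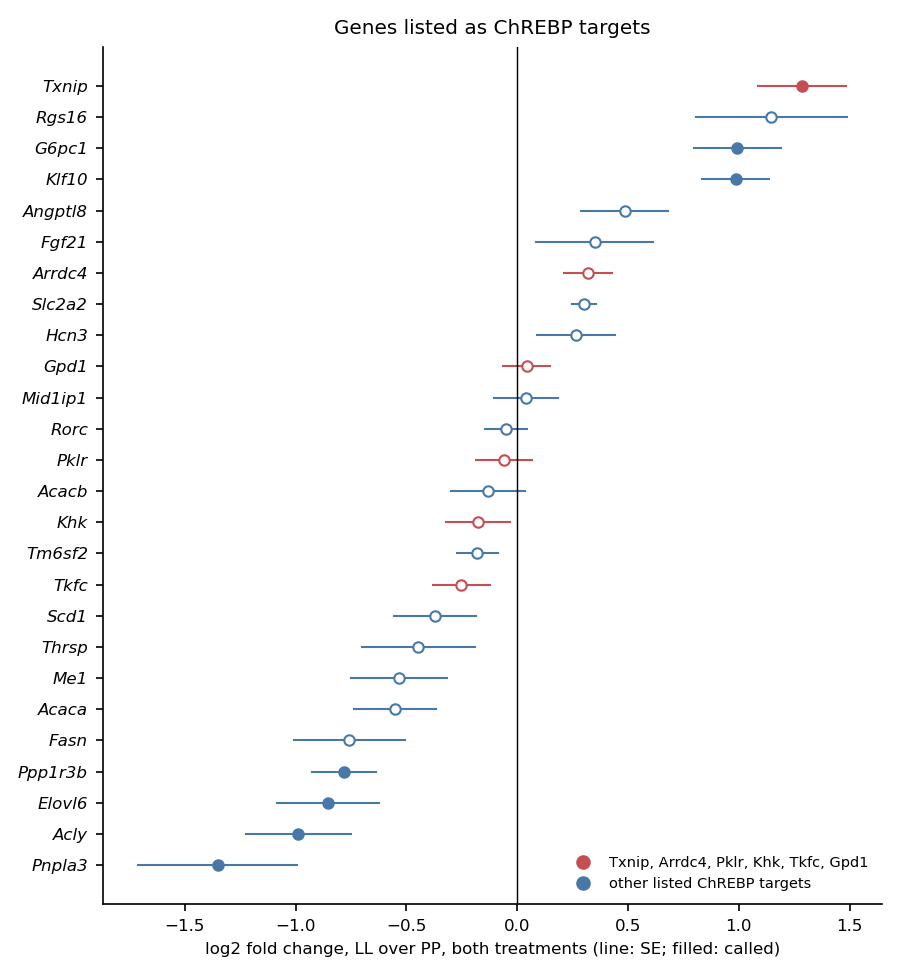
Log2 fold change of LL over PP over both treatments (x axis; lines are ± 1 SE, filled symbols were called) for 20 other genes listed as ChREBP targets and for Txnip, Arrdc4, Pklr, Khk, Tkfc and Gpd1 (y axis, in order of the change). Txnip at 1.29 is at one end and Acly (−0.99) and Pnpla3 (−1.35) are at the other, with Pklr (−0.06) and Gpd1 (0.04) near 0.

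None of the 9 genes was called with GKA. The edgeR fit called 0 members in PP, PL and LL, over 3 genotypes and for either interaction, and 0% of all genes passed in each of these comparisons; DESeq2 called 0 members in them too. At an unadjusted p below 0.05 there were 2 members in PL (Arrdc4 higher, Mlxipl lower; 3.18% of genes) and 1 in the interaction with PL (Arrdc4; 3.35% of genes). There were 0 in PP (3.56% of genes), in LL (6.15%), over 3 genotypes (5.28%) and in the interaction with LL (5.75%). Txnip differed with GKA over 3 genotypes by 0.12 with a 95% interval of −0.19 to 0.43, which leaves out a change of the size of that with LL.

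The enzymes of fructolysis and Pklr varied together from mouse to mouse within groups. Deviations from the group mean on the log2 scale correlated between Tkfc and Pklr with r = 0.837 and rho = 0.818, between Khk and Pklr with r = 0.759 and rho = 0.754, and between Khk and Tkfc with r = 0.744 and rho = 0.7, in 55 mice (permutation test, adjusted p = 0.00015 for each over 45 relations; the raw p of 1e-05 is the smallest that 100000 resamples can give). Without the 2 mice farthest from the median, r was 0.796, 0.7 and 0.682. Mlxipl went the other way, with r = −0.412 and rho = −0.397 to Khk (adjusted p = 0.0282 and 0.0386; r = −0.398 without the 2 farthest mice) and r = −0.4 and rho = −0.407 to Tkfc (adjusted p = 0.0547 and 0.0386). No relation of Txnip to these genes passed the test: its r was −0.242 to Khk (adjusted p = 0.324), −0.163 to Pklr (adjusted p = 0.518), −0.054 to Tkfc (adjusted p = 0.863) and −0.149 to Mlxipl (adjusted p = 0.53). Without the 2 farthest mice these were −0.348, −0.311, −0.174 and −0.12.

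**Figure D5:**
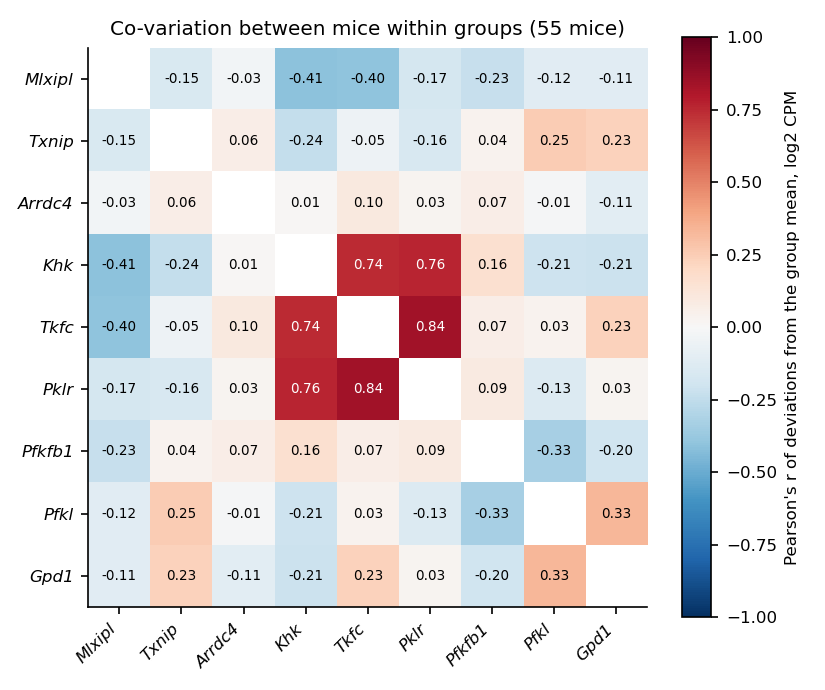
Pearson's r between deviations from the group mean (log2 CPM) for each pair of the 9 genes over 55 mice, from −1 (blue) to 1 (red). Khk, Tkfc and Pklr form a block with r of 0.744 to 0.837, Txnip is weakly negative to it (−0.242 to Khk, −0.163 to Pklr) and near 0 to Arrdc4 (0.065), and Mlxipl is negative to Khk (−0.412) and Tkfc (−0.4).

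The genes nearest to each member in this within-group variation were sought among 11516. For Tkfc they included Gpi1, the glucose 6-phosphate isomerase gene (r = 0.916), and A4gnt (r = 0.866). For Pklr they were Hcn3 (r = 0.924), Tkfc (r = 0.837) and A4gnt (r = 0.814), where Hcn3 lies beside Pklr on the opposite strand and shares 1239 of the 3764 exon bases of Pklr, so that reads of the pair may be split. For Khk they were Pdhb, Gm35986 and Ndufa8 (r of 0.883, 0.866 and 0.864), for Gpd1 Abcb4, Mgll and Pcx (r of 0.838, 0.834 and 0.825), and for Mlxipl Tnrc6a, Pnisr and Leng8 (r of 0.826, 0.818 and 0.808). The closest to Pfkl, Pfkfb1 and Arrdc4 were Fabp4 (r = 0.651), Herpud1 (r = 0.593) and Fam3a (r = 0.502). Points share a library in each of these correlations.

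Of the 9 genes 8 overlap exons of a gene on the opposite strand, and the labels do not give the strandedness of the libraries. The Txnip partner Gm15441 held a median of 0 and at most 16.4 reads per mouse, against a median of 297.5 for Txnip. The Tkfc partner Ddb1 held a median of 1002 reads against 3318 for Tkfc over 434 shared bases, and the partners of the other members held at most 378 reads in a mouse.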

How the data were processed

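Livers of 56 male mice were measured by RNA-seq. The authors quantified untrimmed reads against the GRCm39 transcriptome with Salmon 1.4.0, checked the reads with FastQC, and deposited for each mouse and transcript the estimated counts, the TPM (transcripts per 1000000) and the effective length, with no pooling of replicates. Of the 139225 transcripts of each mouse 98.8% were matched by identifier to the GENCODE annotation of GRCm39, and their estimated counts and TPM were summed per gene; at least 99.76% of the reads of every mouse were matched. Summed counts were rounded to whole numbers. Depth was 5189852 to 8093368 reads, so that genes of few reads such as Arrdc4 are less precise. PP mouse 7 was left out as the authors did. Mice of a group never agreed within sampling noise (lowest chi-square per degree of freedom 11.3).

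Tests used edgeR 4.0.16 (quasi-likelihood F test, TMM scaling, filterByExpr), fitted over all genes passing the filter on the mice of each comparison alone, with Benjamini-Hochberg adjustment; a gene was called at an adjusted p below 0.05 with a fold of at least 1.3 or at most 0.7 (no fold for an interaction). The comparison over both treatments had GKA as a term. CPM are TMM-scaled over 56 mice, and log2 values used a prior count of 2. Correlations used deviations from group means, with 100000 permutations within groups; transcript shares used an exact permutation test or 100000 resamples and transcripts of at least 10% of their gene's reads. On simulated data for LL against PP without GKA (10386 and 10350 genes tested, 191 and 195 of them changed), 89% of 2-fold and 46.2% of 1.5-fold changes were recovered. The measured data gave 9 called genes in that comparison. With so few, the adjusted threshold is stricter than in the simulation, so these shares do not give the power for the 9 members. DESeq2 1.42.0, RLE scaling, no filter, a transcript length offset, PP mouse 7, a fit of all 6 groups, the clock component and leave-one-out were alternatives. The tests set each difference against the spread between mice and took the mice as independent. Litter and cage are not in the labels, so differences between litters or cages were not modelled.

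The 9 genes and the gene lists were chosen with earlier results of these data known. The genes named are the 9, Gckr, the called genes of each list (otherwise the 2 with the smallest p over both treatments), and the 3 nearest to each member by within-group correlation; a few of these are not reported here. Other genes beside the counts of a list (Slc2a2, Slc2a8, Glyctk, Arrdc2, Arrdc3, Fasn) and Mlxipl-210 were chosen after their values were seen. Overlapping genes and promoter sequences came from GENCODE (GRCm39) and RefSeq (GRCm38.p6).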

Additional observations from a re-analysis of the deposited data

Results flagged for a closer look

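Dixon's test at the 95% level was applied to the highest and the lowest mouse of the 54 pairs of gene and group, of which chance alone sets apart about 1 in 20. A gap stood out in 3. In PP, mouse 6 had 71.8 CPM of Txnip, where the next mouse had 29.6 CPM. In LL, mouse 44 had 278 CPM of Mlxipl and the next mouse 205 CPM. In LL_GKA, mouse 51 had 38.4 CPM of Pfkfb1 and the next mouse 24.2 CPM. PP mouse 7, which was in no comparison, had 31.2 CPM of Pfkl, above the highest of the 9 other PP mice at 29.9 CPM, and 11.1 CPM of Pfkfb1, below their lowest at 20.4 CPM.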

How the results depend on the processing

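No paired analysis was possible because no 2 groups share a mouse number in the labels. Txnip stayed called in LL against PP over both treatments under all 7 alternatives and in each of 39 fits without 1 mouse, with log2 fold changes of 0.96 to 1.37 and 1.19 to 1.42. Without GKA the number of members called went from 1 to 0 with RLE scaling (adjusted p of Txnip 0.0511), no filter (0.0595), the transcript length offset (0.312) and the clock component (0.171), and was 0 to 1 over fits without 1 mouse, in which Txnip lay at 1.24 to 1.70. With GKA it went from 0 to 1 (Txnip) by DESeq2 (adjusted p = 0.00297) and in the fit of all 6 groups (0.0236), and was 0 to 1 without 1 mouse, in which Txnip lay at 0.97 to 1.34. No member other than Txnip was called in any alternative of the 13 comparisons. Directions turned with the clock component for Txnip in PL against PP with GKA (−0.17) and for Mlxipl in LL against PP over both treatments (0.081, and −0.084 to 0.013 over fits without 1 mouse, above 0 without PP mouse 3). They turned with the transcript length offset for Pfkfb1 in that comparison (0.0036), for Txnip with GKA over 3 genotypes (−0.094) and for its interaction of GKA with LL (0.22). The cause was not tested. The count of transcript shares was 0 under each alternative. All genes called moved more: from 9 to between 0 (RLE scaling) and 109 (DESeq2) without GKA, from 25 to between 0 (length offset) and 92 (DESeq2) with GKA, from 167 to between 27 (length offset) and 203 (DESeq2) over both treatments, from 16 to between 0 and 71 for PL against PP and from 1 to between 0 and 24 for LL against PL without GKA, and from 0 to at most 31 and 39 for these with GKA. Leave-one-out was run for LL against PP only.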
